A study of Mus musculus with 6 samples.

Results

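The growth hormone receptor and insulin-like growth factor (IGF) axis was followed here through 10 member genes, each found by its symbol among the 55385 genes of the count table. They were the receptor *Ghr*, the signal transducer *Stat5b*, the feedback genes *Socs2* and *Cish*, the hormone *Igf1*, the acid-labile subunit *Igfals* and the IGF binding proteins *Igfbp1*, *Igfbp2*, *Igfbp3* and *Igfbp4*. Liver poly(A) RNA was sequenced from 6 male mice that ate a high-fat diet (HFD). In 3 of them most of the stomach had been cut away, leaving a narrow sleeve (vertical sleeve gastrectomy, VSG), and 3 had a sham operation. The labels give an age of 6–8 weeks, without saying whether this was at the start of the diet, and HFD for 10 weeks before surgery and 12 weeks after it, and per the study's methods they were wild-type C57BL/6 animals. All 6 mice therefore shared strain, sex, diet and an operation, and no lean or unoperated group was among these libraries. Sham libraries are numbered 1 to 3 and VSG libraries 4 to 6, as labelled.

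Growth hormone from the pituitary binds GHR on hepatocytes, which activates the kinase JAK2 and then the transcription factor STAT5b. In the liver STAT5b drives *Igf1*, *Igfals* and the negative feedback genes *Socs2* and *Cish*, and the male pattern of growth hormone pulses sets which sex-biased liver genes are on. Secreted IGF1 travels in blood bound to IGF binding proteins, largely in a ternary complex with IGFBP3 and the acid-labile subunit, and it feeds back on the pituitary. The axis is known to respond to nutrition, insulin and inflammation, and the liver is the main source of circulating IGF1.

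None of the 10 members passed an adjusted p of 0.05 in edgeR's quasi-likelihood test, beside 14.7% of the 14454 genes tested (6.79% higher and 7.87% lower after VSG). At an unadjusted p under 0.05 there were 3 members, *Socs2*, *Cish* and *Igfbp2*, all with higher means after VSG, which is close to the background of 33.9% of genes tested. DESeq2 called these same 3 at an adjusted p under 0.05, beside 22.8% of all genes. Limma-voom and limma on log2(FPKM + 1) called 0 members, with 2 and 3 at an unadjusted p under 0.05, and each called 12.9% of all genes. The VSG and sham libraries of 1 member, *Igfbp2*, did not overlap, against 39.7% of all genes tested. The median log2 fold change was −0.018 over the members and 0.028 over all genes tested. Of the genes called, 46.3% were higher after VSG, and this share was 24.3% when libraries were scaled by total counts alone.

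**Figure D1:**
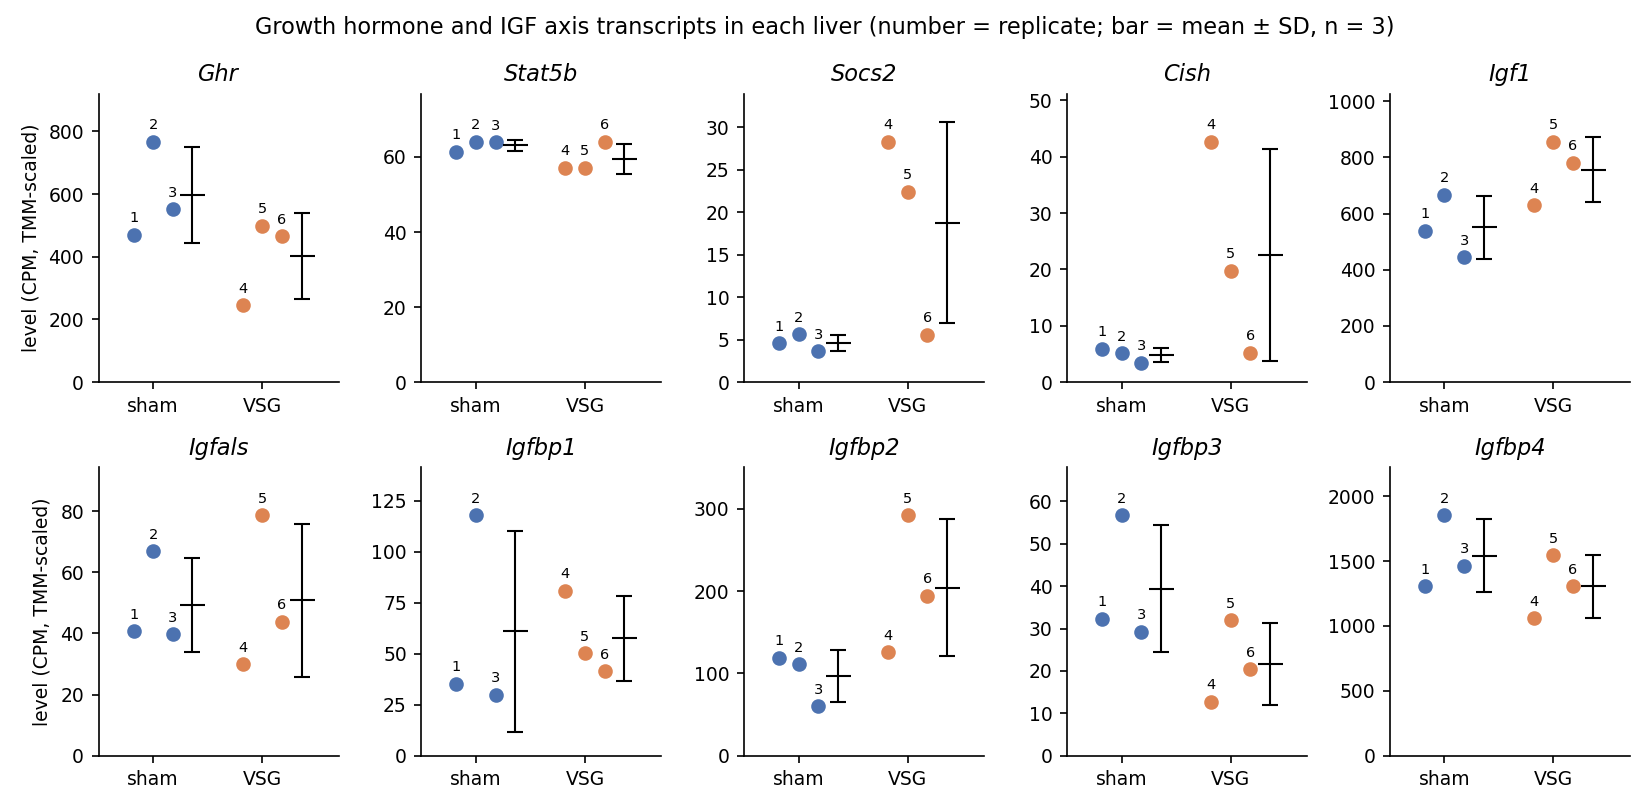
Level of each member in each liver, in CPM on a linear axis from 0, for sham (blue) and VSG (orange) libraries, with points numbered by replicate and a bar for mean ± SD (n = 3). *Igfbp2* is the only panel in which the VSG points all lie above the sham points, and in the *Socs2* and *Cish* panels VSG 4 and VSG 5 stand high while VSG 6 lies at the sham level.

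Total counts ran from 22804397 to 24191778 per library, and levels are given as CPM (counts scaled to library size with TMM factors, which allow for differences in composition). Hepatocyte markers were abundant in every library (summed level 90956 to 131215 CPM in sham and 110872 to 141195 CPM in VSG, 0 of 8 called), so the tissue label held. Markers of other cells moved with the operation. The 8 neutrophil markers, low in sham and tested largely through their VSG counts, summed to 2.56 to 14.4 CPM in sham and to 131 to 1780.1 CPM in VSG. Of 8 Kupffer cell markers 4 were called higher (370.2 to 760.3 CPM summed in sham, 771 to 2255 CPM in VSG). Hepatic stellate cell markers were lower in sum (672 to 1000.5 CPM in sham, 326 to 609 CPM in VSG), with 3 of 9 called lower. By contrast, 0 of 8 endothelial and 1 of 5 tested bile duct markers (higher) were called. Over all genes tested, 6.79% were called higher and 7.87% lower. None of these markers was at 0 in all libraries. In bulk tissue, fewer cells of a type and less RNA per cell cannot be told apart. The part of these markers in the values below was not tested except where a measurement is given.

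*Ghr*, the receptor itself (ENSMUSG00000055737.12, minus strand, chr15:3317760-3583492 in GRCm38), was measured at 471, 767 and 552 CPM in sham 1, 2 and 3 and at 245, 498 and 466 CPM in VSG 4, 5 and 6. VSG 4 had the lowest level of all, while VSG 5 exceeded sham 1, so the groups overlapped. The mean was 597 ± 153 CPM in sham and 403 ± 138 CPM in VSG (SD, n = 3 each). The log2 fold change was −0.57 (SE 0.313, 95% interval −1.31 to 0.18, adjusted p = 0.243), so the interval of the VSG level ran from 0.403 to 1.13 times the sham level. *Stat5b*, which carries the signal from the receptor to DNA (ENSMUSG00000020919.11, minus strand, chr11:100780731-100850724), was the steadiest member. It stood at 61.5, 64.1 and 63.9 CPM in the sham livers and at 57.2, 57.2 and 64.0 CPM after VSG. The fitted difference was a log2 of −0.087 (SE 0.0877, 95% interval −0.30 to 0.12, adjusted p = 0.508), the narrowest interval of the 10. *Stat5a* is a near-identical neighbouring copy, so reads could be split between them and both values are uncertain.

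The feedback genes had the largest fitted differences and also the largest disagreement among VSG livers. *Socs2*, an adaptor of a ubiquitin ligase that removes activated GHR (ENSMUSG00000020027.18, minus strand, chr10:95385362-95417180), was at 4.58, 5.62 and 3.65 CPM in sham and at 28.3, 22.4 and 5.58 CPM in VSG. VSG 4 and VSG 5 were far above every sham liver, and VSG 6 lay inside the sham range. The mean was 4.62 ± 0.987 CPM in sham and 18.8 ± 11.8 CPM in VSG, a 4.08-fold difference (log2 2.03, SE 0.555, 95% interval 0.71 to 3.35). edgeR gave an unadjusted p of 0.00854 and an adjusted p of 0.0540, which misses the threshold.

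*Cish*, whose protein docks on the activated receptor and blocks STAT5 (ENSMUSG00000032578.7, plus strand, chr9:107296026-107302784), had the same order of VSG libraries. It was at 5.91, 5.16 and 3.42 CPM in sham and at 42.7, 19.8 and 5.25 CPM in VSG. Again VSG 4 was highest, VSG 5 next and VSG 6 within the sham range. The means of 4.83 ± 1.28 and 22.6 ± 18.9 CPM differed 4.67-fold (log2 2.22, SE 0.688, 95% interval 0.59 to 3.86, adjusted p = 0.0735). These were low-level genes, with 96 to 124 counts for *Socs2* and 90 to 160 for *Cish* in the sham libraries. A pair of opposite-strand genes that share exon bases with *Cish* had at most 4 counts in any library.

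Whether either gene passed the threshold turned on VSG 6 and on the tool. Without VSG 6, the log2 fold change was 2.46 for *Socs2* (adjusted p = 0.0220) and 2.69 for *Cish* (adjusted p = 0.0474), and these 2 were the only members called, in a fit that called 1.42% of all genes. Without VSG 4 the differences were smaller, at 1.61 for *Socs2* (adjusted p = 0.117) and 1.38 for *Cish* (adjusted p = 0.156), and VSG 4 thus moved the *Cish* fold by over 1.5 times. With all 6 libraries DESeq2 gave adjusted p-values of 0.00162 and 0.00360, and edgeR without a filter on low counts gave 0.0192 and 0.0307, with 8.38% of all genes called. Over the 13 alternatives tried, the adjusted p of *Socs2* ran from 0.00162 to 0.185 and that of *Cish* from 0.00360 to 0.224, with a positive difference in all of them. The 3 VSG livers also differed in summed acute phase transcripts (144956, 70870.4 and 121686 CPM in VSG 4, 5 and 6) and in neutrophil markers (1780.1, 131 and 802 CPM). VSG 4 was highest in both sums, as it was for *Socs2* and *Cish*, whereas VSG 5 and VSG 6 were in the opposite order. A link between these sums and the 2 genes was not tested.

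The *Cish* promoter is shown because it is the textbook STAT5 target of this group. RefSeq (GRCm38.p6) windows from 250 bases before to 50 bases after a start site were given for 9 of the 10 members, all but *Socs2*, in 14 windows. They were searched for the STAT5 palindrome TTCNNNGAA, which reads the same on both strands. Of the 32851 windows of this length over all genes, 8.30% held it, and among the members it was found for *Cish* and *Igfals*. The *Cish* window at chr9:107296409-107296708 (plus strand) held 2 matches, at bases 251 to 259 and 262 to 270. One *Igfals* window (chr17:24877981-24878280, plus strand) held 1 match at bases 193 to 201, and a second window of that gene, not printed, held 1 at bases 15 to 23. Matches are printed in capitals. They describe the letters in these windows and show no binding.
Cish: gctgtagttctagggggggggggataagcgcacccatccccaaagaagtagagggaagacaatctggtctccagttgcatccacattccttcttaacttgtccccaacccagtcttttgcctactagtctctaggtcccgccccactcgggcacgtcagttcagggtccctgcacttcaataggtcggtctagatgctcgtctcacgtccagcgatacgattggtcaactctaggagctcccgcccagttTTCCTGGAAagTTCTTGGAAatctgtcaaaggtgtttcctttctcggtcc
Igfals: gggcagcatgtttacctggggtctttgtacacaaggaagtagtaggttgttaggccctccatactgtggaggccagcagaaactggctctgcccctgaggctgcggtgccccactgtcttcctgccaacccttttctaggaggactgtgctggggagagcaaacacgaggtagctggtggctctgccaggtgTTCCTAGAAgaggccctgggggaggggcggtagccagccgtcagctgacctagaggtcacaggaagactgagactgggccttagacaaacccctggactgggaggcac

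*Igf1*, the secreted growth factor (ENSMUSG00000020053.18, plus strand, chr10:87858265-87937042), was at 539, 668 and 445 CPM in sham and at 630, 856 and 782 CPM in VSG. VSG 5 and VSG 6 were above every sham liver, and VSG 4 lay below sham 2. The mean of 551 ± 112 CPM in sham compared with 756 ± 115 CPM in VSG, with a log2 fold change of 0.46 (SE 0.207, 95% interval −0.035 to 0.95, adjusted p = 0.172). *Igf1* was positive under all 13 alternatives (0.32 to 0.61) and past the threshold in 0 of them. *Igfals*, whose protein holds IGF1 and IGFBP3 together in blood (ENSMUSG00000046070.9, plus strand, chr17:24865997-24882010), showed no shared direction. It was at 40.8, 66.9 and 39.8 CPM in sham and at 30.0, 78.7 and 43.7 CPM in VSG, so that the VSG livers held both the lowest and the highest value. Its log2 fold change of 0.049 (SE 0.374, 95% interval −0.84 to 0.94, adjusted p = 0.939) turned negative under total-count scaling (−0.050), limma-voom (−0.032) and limma on log2(FPKM + 1) (−0.019).

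**Figure D2:**
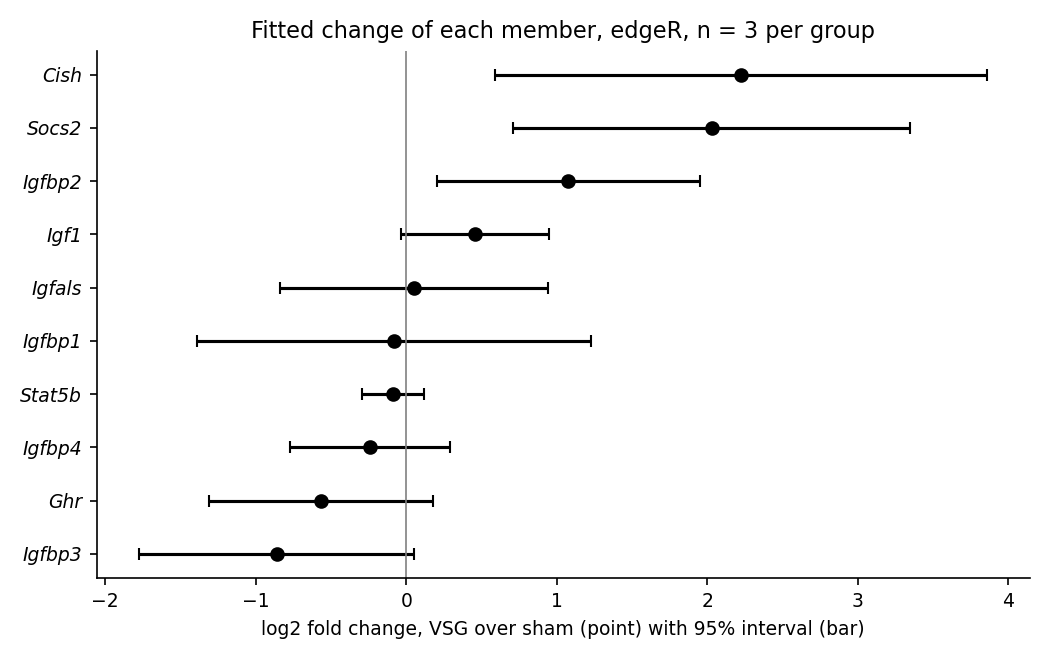
Log2 fold change of each member, VSG over sham, from edgeR (point) with its 95% interval (bar), ordered by size, n = 3 per group. The intervals of *Cish*, *Socs2* and *Igfbp2* lie above 0 before adjustment for the number of genes tested, and that of *Stat5b* is the narrowest.

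The binding proteins differed in direction from each other. *Igfbp1*, which hepatocytes make when insulin is low (ENSMUSG00000020429.7, plus strand, chr11:7197782-7202546), was at 35.3, 118 and 29.8 CPM in sham and at 80.9, 50.1 and 41.3 CPM in VSG. Sham 2 stood above all other livers, and the other 2 sham livers were below all 3 VSG livers. The fitted log2 difference was −0.084 (SE 0.550, 95% interval −1.39 to 1.22, adjusted p = 0.928) with sham 2 and 0.82 (SE 0.299, adjusted p = 0.150) without it. The summed level of 16 fasting- and glucocorticoid-responsive genes was 6182, 12296 and 7804 CPM in sham and 4093, 6639 and 6524 CPM in VSG. Sham 2 was highest in both measures, but VSG 4, the highest VSG liver for *Igfbp1*, had the lowest sum of all, and sham 1 and sham 3 were in opposite order. The feeding state and hour of tissue collection were not given in the sources used here. The *Igfbp1* window is printed because the gene is known for an insulin response element near its start. The FoxO core AAACAA, searched on both strands and present in 20.7% of all windows, occurred once there (chr11:7197537-7197836, plus strand, bases 145 to 150, in capitals). *Igfbp2* and *Stat5b* each had it in 1 window as well.
Igfbp1: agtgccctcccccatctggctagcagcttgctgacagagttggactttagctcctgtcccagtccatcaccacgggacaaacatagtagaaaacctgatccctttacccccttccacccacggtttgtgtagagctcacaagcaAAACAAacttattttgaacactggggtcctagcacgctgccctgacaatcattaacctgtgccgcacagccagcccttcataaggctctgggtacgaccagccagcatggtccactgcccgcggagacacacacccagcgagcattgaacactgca

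*Igfbp2*, a binding protein of hepatocytes that is known to be low in obesity (ENSMUSG00000039323.18, plus strand, chr1:72824503-72852474), was at 119, 111 and 60.2 CPM in sham and at 126, 292 and 194 CPM in VSG. All 3 VSG livers were above all 3 sham livers, though VSG 4 exceeded sham 1 only slightly. The mean was 96.8 ± 31.9 CPM in sham and 204 ± 83.6 CPM in VSG, a 2.11-fold difference (log2 1.08, SE 0.368, 95% interval 0.20 to 1.95). The adjusted p was 0.0928 in edgeR and 0.0246 in DESeq2, and from 0.0246 to 0.241 over the 13 alternatives.

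*Igfbp3*, the main partner of IGF1 in serum, whose transcript in rodent liver comes largely from cells other than hepatocytes, lies tail to tail with *Igfbp1* at a distance of 3.54 kb (ENSMUSG00000020427.11, minus strand, chr11:7206086-7213923). It was at 32.4, 56.8 and 29.2 CPM in sham and at 12.7, 32.0 and 20.4 CPM in VSG. VSG 4 and VSG 6 were below every sham liver and VSG 5 was among them. The log2 fold change of −0.86 (SE 0.384, 95% interval −1.78 to 0.053, adjusted p = 0.167) stayed negative under all 13 alternatives (−1.27 to −0.51). Summed stellate cell markers were at 949, 672 and 1000.5 CPM in sham and at 326, 609 and 384 CPM in VSG, the same order as *Igfbp3* among the VSG livers and the reverse order among the sham livers. Summed endothelial markers overlapped (343 to 418 CPM in sham, 351 to 431 CPM in VSG). Summed Kupffer cell markers were higher after VSG (370.2 to 760.3 CPM in sham, 771 to 2255 CPM in VSG). The part of any of these cells in the *Igfbp3* values was not tested.

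*Igfbp4*, a binding protein that restrains IGF action in tissues (ENSMUSG00000017493.12, plus strand, chr11:99041244-99054392), was the most abundant member. It was at 1307, 1855 and 1463 CPM in sham and at 1061, 1546 and 1307 CPM in VSG. The groups overlapped, and the log2 fold change was −0.24 (SE 0.224, 95% interval −0.77 to 0.29, adjusted p = 0.475).

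Levels of different genes were set side by side only per length, as FPKM (CPM per kilobase of summed exons). *Igfbp4* led in both groups (349 ± 63.9 FPKM in sham, 295 ± 54.9 FPKM in VSG), and its range over the livers was clear of the next gene's. In sham it was followed by *Ghr* (65.9 ± 16.9), *Igf1* (55.6 ± 11.3), *Igfbp2* (52.4 ± 17.3) and *Igfbp1* (40.0 ± 32.4), whose neighbours in this order overlapped. *Igfals* (15.5 ± 4.86), *Igfbp3* (12.6 ± 4.82) and *Stat5b* (11.4 ± 0.268) came next with overlapping neighbours, and *Cish* (0.752 ± 0.199) and *Socs2* (0.484 ± 0.104) were last. In VSG the order by mean after *Igfbp4* was *Igfbp2* (111 ± 45.3 FPKM), *Igf1* (76.3 ± 11.6), *Ghr* (44.5 ± 15.2) and *Igfbp1* (37.7 ± 13.6). Here *Igf1* was above *Ghr* with no overlap of the livers, and *Igfbp2* overlapped *Igf1*. *Igfals* (16.0 ± 7.93), *Stat5b* (10.7 ± 0.713), *Igfbp3* (6.93 ± 3.11), *Cish* (3.52 ± 2.94) and *Socs2* (1.97 ± 1.24) followed, each overlapping the next, except that *Stat5b* was clear of *Igfbp3*.

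Because shares within a library do not depend on its scaling, the makeup of the summed *Igfbp1* to *Igfbp4* FPKM was compared. *Igfbp2* held 16.4%, 10.5% and 8.30% in the sham livers and 18.7%, 28.7% and 24.2% in the VSG livers, a mean of 11.7 ± 4.17% against 23.9 ± 5.03%. As a share of counts, which weights genes by length, these means were 5.66 ± 2.12% and 12.5 ± 2.69%, a difference of 6.84 percentage points in place of 12.1. *Igfbp4* held 75.1%, 73.0% and 84.3% in sham and 65.7%, 63.5% and 68.1% in VSG. *Igfbp3* held 2.72 ± 0.396% in sham and 1.49 ± 0.374% in VSG. For these 3 genes the groups did not overlap, and each exact two-sided permutation test gave p = 0.1, the smallest that 3 against 3 libraries allow. *Igfbp1* held 8.09 ± 4.64% and 8.90 ± 4.86% (exact permutation p = 0.5). The 4 shares sum to a fixed total, so a higher share of one is a lower share of the rest. Their summed level itself overlapped (393 to 576 FPKM in sham, 366 to 552 FPKM in VSG).

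**Figure D3:**
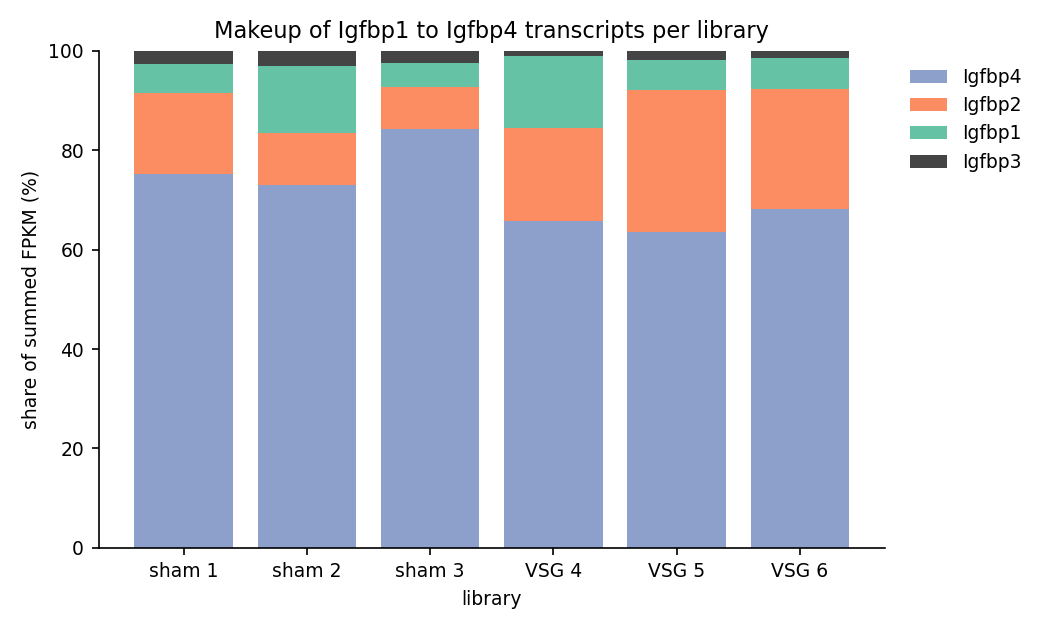
Share of the summed *Igfbp1* to *Igfbp4* FPKM held by each gene in each library, in percent of a bar that runs from 0 to 100. The *Igfbp2* segment (orange) spans 8.30% to 16.4% in the sham livers and 18.7% to 28.7% in the VSG livers.

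Ratios between members were also formed within each liver. The 9 ratios were chosen after the values were seen and are given as a description with no test. *Igf1* to *Ghr* was 1.05, 0.795 and 0.738 in sham and 2.35, 1.57 and 1.53 in VSG, a mean of 0.860 ± 0.164 against 1.82 ± 0.459. *Igf1* to *Igfbp3* was 5.27, 3.72 and 4.82 in sham and 15.7, 8.45 and 12.1 in VSG. *Igfbp2* to *Igfbp3* was 3.32 to 6.23 in sham and 15.5 to 16.8 in VSG. In 6 of the 9 ratios the VSG livers were all above the sham livers, and in *Igf1* to *Igfals*, *Cish* to *Ghr* and *Cish* to *Socs2* they overlapped. *Cish* to *Socs2* was 1.92, 1.36 and 1.39 in sham and 2.24, 1.31 and 1.40 in VSG, a narrower span over the VSG livers than that of either gene's level.

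**Figure D4:**
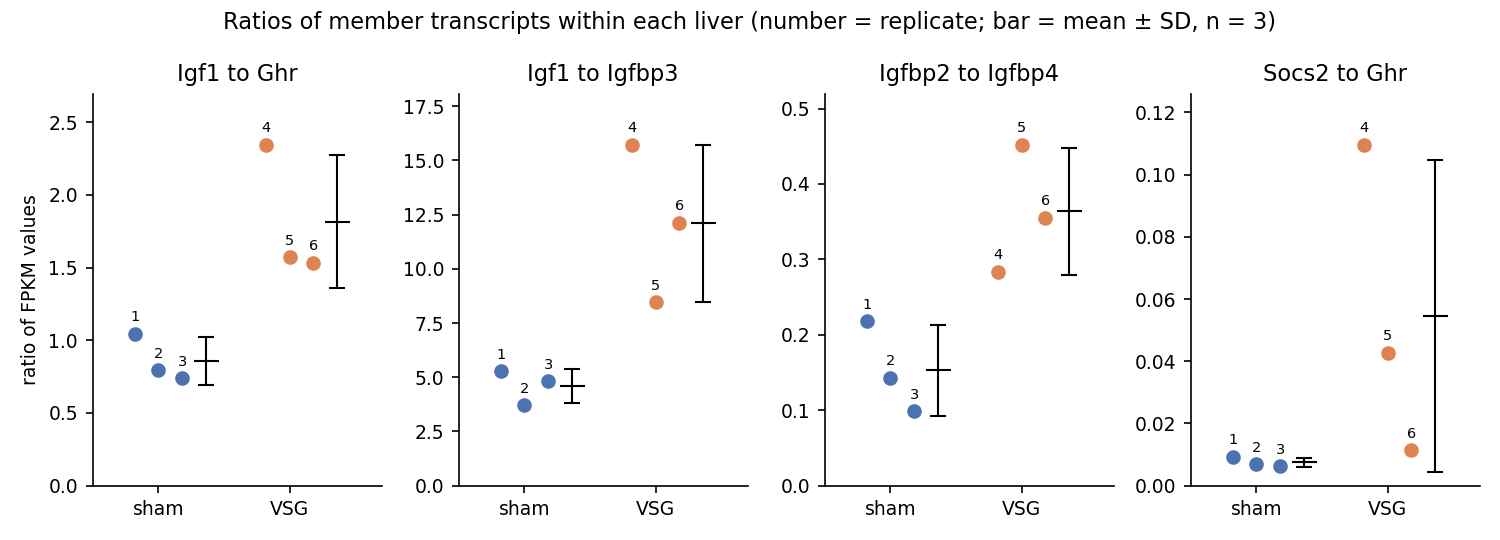
Ratio of FPKM values of named members within each liver, on linear axes, for sham (blue) and VSG (orange), with points numbered by replicate and a bar for mean ± SD (n = 3). In all 4 panels the VSG points lie above the sham points, and for *Socs2* to *Ghr* VSG 6 (0.0114) is close to sham 1 (0.00923).

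The livers of a group did not deviate in the same way for every member. Sham 2 was the highest sham liver for 8 of the 10 members and sham 3 the lowest for 7. VSG 5 was the highest VSG liver for 6 members, whereas VSG 4 was the lowest for 6 and the highest for *Socs2*, *Cish* and *Igfbp1*. The spread within a group was widest for *Cish* and *Socs2* in VSG, where the highest liver was 8.13 and 5.08 times the lowest, and narrowest for *Stat5b* in sham (1.04 times).

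**Figure D5:**
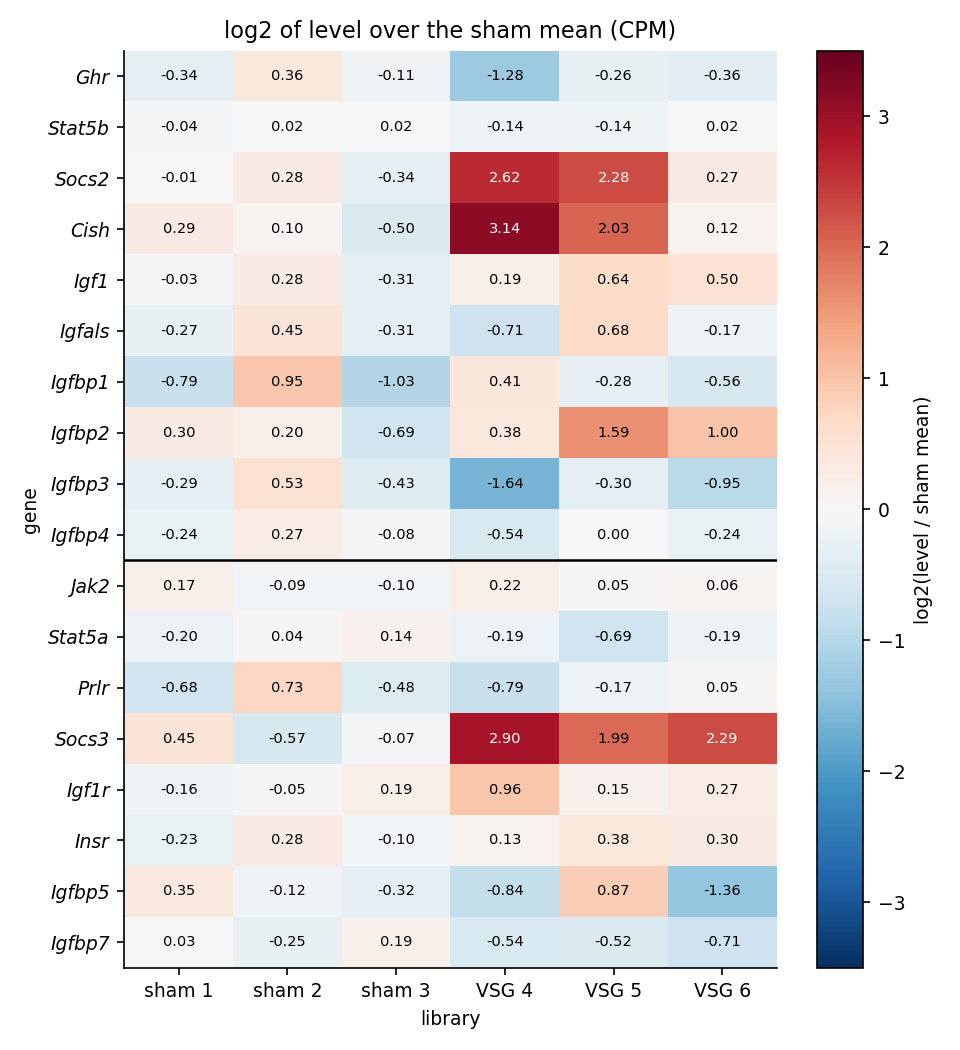
Log2 of each library's CPM over the sham mean of that gene, for the 10 members (above the line) and 8 further genes of growth hormone and IGF signalling (below it), with the value printed in each cell. *Socs3* is high in all 3 VSG libraries (1.99 to 2.90), whereas *Socs2* and *Cish* are high in VSG 4 and 5 and near 0 in VSG 6 (0.27 and 0.12).

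Among 18 signalling partners of the receptor, 4 passed the test, 3 of which are described here and rose (median log2 fold change 0.16), beside 14.7% of all genes tested called. *Socs3*, the feedback inhibitor induced mainly through STAT3, rose from 8.90, 4.39 and 6.19 CPM to 48.3, 25.9 and 31.7 CPM (log2 2.44, SE 0.328, adjusted p = 0.0104). *Stat3*, the transcription factor of interleukin-6 signalling, rose by a log2 of 1.02 (adjusted p = 0.00809), and the phosphatase gene *Ptpn2* by 0.54 (adjusted p = 0.0454). Unlike *Socs2* and *Cish*, *Socs3* was above the sham range in VSG 6 too.

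The kinase *Jak2* was at 26.0 to 31.5 CPM in sham and 28.9 to 32.5 CPM in VSG (log2 0.11, adjusted p = 0.502). *Stat5a* had a log2 fold change of −0.34 (adjusted p = 0.204) and the prolactin receptor *Prlr* one of −0.26 (adjusted p = 0.674), with overlapping groups for each. The list's 4 calls became 0 without sham 3 and 1 without VSG 6, and the calls over all genes dropped in the same fits to 159 and 210.

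Of 15 other IGF system genes, 9 were tested and 1 fell (median log2 fold change −0.11), which is also near the background of 14.7%. This was *Igfbp7*, a matrix-associated relative of the binding proteins, at 112, 92.6 and 126 CPM in sham and 75.9, 76.9 and 67.1 CPM in VSG (log2 −0.59, SE 0.136, adjusted p = 0.0356). Summed stellate cell markers were lower in the same livers (326 to 609 CPM, against 672 to 1000.5 CPM in sham), and their part in this was not tested. The call was lost, leaving 0, without sham 1, sham 3, VSG 4 or VSG 6, and without VSG 5 the list had 3 calls. The receptors *Igf1r* (log2 0.51, adjusted p = 0.189) and *Insr* (log2 0.27, adjusted p = 0.293) were not called. *Igfbp5*, 5.46 kb from *Igfbp2* on chromosome 1, had a log2 fold change of −0.11 (adjusted p = 0.909). *Igf2*, which the adult mouse liver has largely silenced, had 1 count in each sham library and 0 in each VSG library, at or under the floor of 3 counts, and *Pappa2*, a protease of binding proteins, was at 0 in all 6.

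Genes known to follow the sex pattern of growth hormone secretion were counted next. Of 17 tested male-biased targets, 2 rose and 0 fell (median log2 fold change 0.76), a count near the background, in which 14.7% of all genes tested were called. *C6*, a complement component, rose from 138, 90.7 and 68.1 CPM to 296, 402 and 432 CPM (log2 1.93, adjusted p = 0.0134), and the glutathione transferase gene *Gstp1* by a log2 of 1.08 (adjusted p = 0.00934). *C6* and *Gstp1* also have roles in complement and detoxification outside sex bias. The 2 calls became 0 without sham 3, 1 without VSG 6 and 4 without VSG 4.

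Of 16 female-biased targets, 8 had too few counts to test. Among the 8 tested, 6 fell and 0 rose in these male livers, beside 7.87% of all genes tested lower and 6.79% higher. However, *Cyp2a4*, *Cyp2b13* and *Hao2* passed the filter only through the sham libraries, where they are high. The filter thus fixed the direction of any call on these 3 genes in advance, and no p is given for them. With at least 10 counts required in every library, 3 fell, in a fit that called 1053 of 13029 genes lower. The cytochrome P450 gene *Cyp2b9* was at 73.5, 333 and 293 CPM in sham and at 3.03, 3.38 and 1.62 CPM in VSG (log2 −6.44, SE 0.688, adjusted p = 0.00656). *Cyp2a4*, a steroid hydroxylase gene, had 1720, 266 and 432 counts in sham and 3, 3 and 0 in VSG (adjusted p = 0.00939). *Cyp2b13* had 69, 468 and 511 counts in sham and none in VSG, at least 101-fold lower against a floor of 3 counts per library (adjusted p = 0.0265). The P450 genes have close paralogs, so their counts are uncertain. The 6 calls became 2 without sham 3 and 1 without VSG 6. No test compared the female-biased with the male-biased list.

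Conditions known to act on the axis were measured beside it. Of 15 acute phase genes 14 rose (median log2 fold change 2.96), beside 6.79% of all genes tested. They were led by *Saa2* (6.54, adjusted p = 0.00809), *Saa1* (5.87, adjusted p = 0.00783) and *Orm2* (5.33, adjusted p = 0.0216), all secreted inflammatory proteins of hepatocytes. The 14 became 9 without sham 2, 1 without sham 3 and 6 without VSG 6. Of 16 fasting- and glucocorticoid-responsive genes 3 fell and 1 rose (median log2 fold change −0.78), beside 7.87% of all genes tested lower and 6.79% higher. *Pdk4*, which spares glucose in fasting, fell by 2.28 on the log2 scale (adjusted p = 0.0142), *Txnip* by 1.27 (adjusted p = 0.0270) and the coactivator gene *Ppargc1a* by 0.79 (adjusted p = 0.0371), while *Asns*, the asparagine synthetase gene of the amino acid response, rose by 4.85 (adjusted p = 0.0101). The 4 calls became 0 without sham 3, 1 without VSG 6 and 2 without VSG 4. The part of either list in the members' values was not tested.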

How the data were processed

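Poly(A) RNA libraries, strand-specific, were made from 3 sham and 3 VSG livers, each from 1 animal. Per the labels and the study's methods, the authors checked reads with FastQC 0.10.1, aligned them to mm10 with STAR 2.6.0 and deposited raw read counts per gene from featureCounts (2.0.3 in the submitters' processing notes). The annotation release, strand option and treatment of multiply mapped reads were not given in the sources used here. Of 55385 identifiers, 55144 matched GENCODE M21 without version and gave symbols. The deposited gene length, in bases, entered FPKM only.

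A filter on low counts (filterByExpr, minimum count 10 and minimum total 15) left 14454 genes. They were tested with edgeR 4.0.16 (R 4.3.3) by glmQLFit and glmQLFTest with TMM factors (0.897 to 1.15), group as the only term and Benjamini-Hochberg adjustment over the 14454 genes. Adjusted p-values are edgeR's except where DESeq2 or limma is named. SE is the log2 fold change divided by the square root of F, and 95% intervals use the fit's degrees of freedom. CPM and FPKM were computed with TMM factors. Libraries of a group differed by a chi-square per degree of freedom of at least 25.2, so none was counted as a repeat. The floor of 3 counts covers counting error only. Alternatives were DESeq2 1.42.0, limma 3.58.1 (voom, and log2(FPKM + 1)), RLE factors, total counts, other count filters and leaving out each library. The pipeline was tested on simulated data. It called 26.5% of genes with a simulated log2 change of 1, 79.4% of those with 2 and 0.014% of unchanged genes. A gene that was not called may therefore still differ.

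The members and lists were chosen with earlier results of these data known. Named genes were the members, 9 further genes of the axis and, per list and direction, up to 3 called genes with the largest log2 fold change among those with a mean of at least 5 CPM and non-overlapping groups. The result of 1 gene that this rule names is not reported here.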

Additional observations from a re-analysis of the deposited data

How the results depend on the processing

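With DESeq2, 3288 genes passed the adjusted p in place of 2118, with 3 members, 2 other IGF system genes, 4 male-biased, and 8 fasting- and glucocorticoid-responsive genes among them. Without a filter on low counts, 2 members and 5 male-biased genes passed. Female-biased calls came to 3 under limma-voom and 3 with at least 10 counts in every library, where fewer genes were tested. The cause of the other shifts was not tested. Leaving out 1 library at a time gave 159 to 2732 genes in all, 0 to 2 members, 0 to 6 partners, 0 to 3 other IGF system genes, 0 to 4 male-biased, 1 to 7 female-biased, 1 to 15 acute phase, and 0 to 5 fasting- and glucocorticoid-responsive genes. *Igfals* turned negative under limma-voom (−0.032), limma on log2(FPKM + 1) (−0.019) and total counts (−0.050), and ran from −0.43 to 0.33 with 1 library left out. *Igfbp1* turned positive under limma-voom (0.13) and limma on log2(FPKM + 1) (0.14), and ran from −0.42 to 0.82 with 1 library left out. The other 8 members kept their direction under all 13 alternatives. The *Igfbp2* share differed by 12.1 percentage points in FPKM and by 6.84 in counts, since counts weight genes by length. Scaling by total counts moved the median log2 fold change of all genes from 0.028 to −0.11. No paired analysis was possible because the sham and VSG libraries share no replicate numbers.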

Other observations

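Of the male-biased targets, 3 that did not pass the test were picked out after their values were seen, because the VSG livers disagreed on them. *Hsd3b5*, a steroid dehydrogenase gene, was at 0.0739, 0.685 and 0.0380 CPM in sham and at 0.0905, 38.6 and 35.3 CPM in VSG (log2 6.62, adjusted p = 0.0539). *Slco1a1*, an organic anion transporter gene, was at 2.70, 54.7 and 2.28 CPM in sham and at 6.24, 197 and 162 CPM in VSG (log2 2.63, adjusted p = 0.266). *Cyp7b1*, an oxysterol hydroxylase gene, was at 28.4, 70.7 and 30.5 CPM in sham and at 45.1, 183 and 300.3 CPM in VSG (log2 2.03, adjusted p = 0.0923). All 3 were high in VSG 5 and 6 and low in VSG 4. *Socs2* and *Cish* were highest in VSG 4 but also high in VSG 5, and a link to them was not tested. Sham 2 had the highest sham level of *Hsd3b5*, *Slco1a1* and *Cyp7b1*, as it had for 8 of the 10 members of the growth hormone and IGF axis. Of the 17 male-biased targets tested, 13 had a positive and 4 a negative log2 fold change. The negative ones included *Mup20* (−1.28, adjusted p = 0.171) and *Cyp4a12a* (−1.25, adjusted p = 0.266).

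VSG 5 also held the highest level of *Igfbp5* (29.5 CPM, against 6.25 to 20.5 CPM in the other livers), of *Igfbp6* (4.19 CPM, against 0.228 to 0.572 CPM) and of *Pappa*, the gene of a protease that cleaves IGFBP4 (2.31 CPM, against 0.191 to 0.480 CPM), values likewise picked out after they were seen. The edgeR adjusted p was 0.909 for *Igfbp5* and 0.123 for *Igfbp6*, and *Pappa* had too few counts to be tested.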
